A study of Glycine max with 10 samples.

Results

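Genes whose transcription rose within hours of water uptake and was lower again at 24 hours were examined in embryonic axes of soybean (Glycine max, cultivar BRS 284). RNA-Seq libraries came from axes cut from dry seeds (0 HAI, hours after imbibition) and from seeds imbibed in water for 3, 6, 12 or 24 hours at 28 °C under a day and night cycle, with 2 biological replicates for each of the 5 time points, 10 samples in all. The groups carry no treatment or genotype other than the time since imbibition, and each library pooled the axes of many seeds. The embryonic axis grows into the stem and root of the seedling, and its transcription is given here as 1 value per gene and time point that joins both replicates, in FPKM (read fragments scaled to transcript length and to sequencing depth).

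A gene was taken as transiently induced when its transcription at 3-HAI was at least 10 FPKM, at least 4 times that of dry seeds and at least 4 times that at 24-HAI. This rule picked 114 of 54154 genes, which is 0.211% of the table. Each condition alone was met more often: 0.761% of all genes stood at 10 FPKM or more at 3-HAI after a rise of at least 4-fold from dry seeds, and 5.88% stood at that level and lay at least 4-fold lower at 24-HAI. The values at dry, 3-HAI and 24-HAI chose the genes and are given below as a description. The values at 6-HAI and 12-HAI, the positions and the spans were not used by the rule. Ratios of 6-HAI or 12-HAI to 3-HAI still share the 3-HAI value with it. The replicates enter the table as 1 joint value, so no SD can be given and no test was run. Series of 5 values run in the order dry, 3-, 6-, 12- and 24-HAI.

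Dry seeds hold a store of transcripts made during maturation, and imbibition starts both their decay and new transcription. Genes that respond early and for a short time to a stimulus often encode regulators such as transcription factors and signalling kinases, or enzymes that prepare the cell wall for expansion. Xyloglucan endotransglucosylases cut and rejoin xyloglucan chains in growing walls, LOB domain proteins are plant transcription factors that act at organ boundaries and in root formation, and mitogen-activated protein kinases relay signals by phosphorylation. Of the transient genes, 4 have a name in the study's text, and they belong to these 3 families. The other identifiers have no name in the table or in the text, 0 of the 114 matched the RefSeq gene table, and those genes are described by their values alone.

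As a group, the transient genes held a summed transcription of 989.3, 8404, 6833, 2951 and 989.9 FPKM. Their share of all FPKM in the table went from 0.0958% in dry seeds to 1.0% and 0.987% at 3- and 6-HAI, and then down to 0.542% and 0.166%. The sum was thus nearly the same at both ends of the series, while the share was not, because the FPKM of all genes together were lower at 24-HAI (596044) than in dry seeds (1032952). The size of a ratio between time points therefore depends on how they were scaled. In whole axes, a change in the cells that express a gene and a change in its RNA per cell cannot be told apart.

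The median transcription of the transient genes was 4.87, 43.9, 41.0, 15.2 and 5.23 FPKM. Levels differed widely between genes, from 10.4 to 478 FPKM at 3-HAI, and 25 genes reached 100 FPKM or more there. The ratio of 3-HAI to dry had a median of 7.24 over the 110 genes above 0 in dry seeds, and the ratio of 3-HAI to 24-HAI a median of 7.02. In dry seeds 17 genes lay under 1 FPKM and 33 were already at 10 FPKM or more, so that the group joined genes that were nearly silent in the dry axis with genes that had a sizeable stored transcript.

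**Figure D1:**
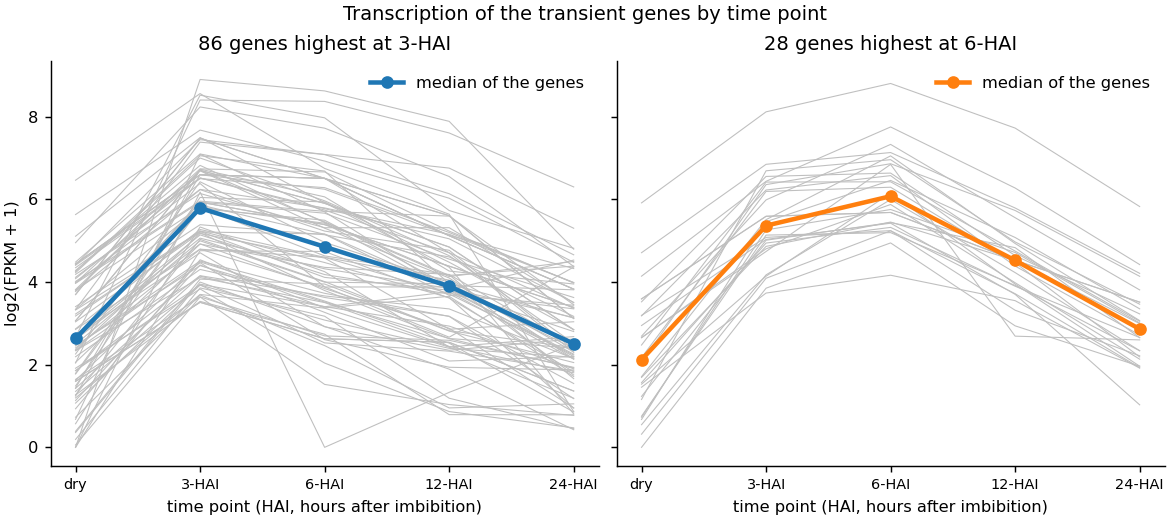
Transcription of the 114 transient genes as log2(FPKM + 1) at the 5 time points, with 1 grey line per gene and the median of the genes in colour. The left panel holds the 86 genes that were highest at 3-HAI and the right panel the 28 genes that were highest at 6-HAI, and in both the median came down at 12-HAI and 24-HAI.

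The highest value fell at 3-HAI in 86 genes (75.4%) and at 6-HAI in 28 genes (24.6%). In some genes on both sides the values nearly tied. The ratio of 6-HAI to 3-HAI was 1.004 in Glyma19g06280 and 0.986 in Glyma13g12056, so the groups are not sharply parted. Among all 12916 genes with at least 10 FPKM at 3-HAI, 33.8% were highest at 3-HAI and 6.29% at 6-HAI. No transient gene was highest at 12-HAI, against 3.17% of those genes. The rule allowed no maximum in dry seeds or at 24-HAI, where 40.9% and 15.9% of them had theirs. This alone raises the shares at the other time points together, and no excess is read from them. Of all genes at that level, 4366 were highest at 3-HAI, 812 at 6-HAI and 409 at 12-HAI. The 28 genes of the later maximum had medians of 3.34, 40.3, 66.6, 22.0 and 6.28 FPKM. For the 86 genes of the earlier maximum, the medians were 5.22, 54.4, 27.9, 13.9 and 4.69 FPKM. The genes of the later maximum had the lower median in dry seeds and the higher one at 24-HAI.

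Between 3-HAI and 6-HAI, 32 transient genes (28.1%) fell at least 2-fold, against 3.20% of all genes with at least 10 FPKM at 3-HAI. With equal FPKM totals at all time points, the same genes gave 13.2% against 0.496%, and after quantile normalization 15.8% against 0.983%. Another 10 (8.77%) rose at least 2-fold, against 1.38%. Such a rise is not particular to the transient genes, as 14.8% of the induced genes that were not lost, compared below, also made it. Between 6-HAI and 12-HAI, 73 genes (64.0%) fell at least 2-fold, against 9.33%, and 1 rose, which is Glyma10g10741 (background 0.650%). From 12-HAI to 24-HAI, 83 genes (72.8%) fell at least 2-fold, against 25.7%, and 2 rose, against 4.04%. Since the rule asks for a 4-fold loss by 24-HAI, some fall had to occur. Its distribution over the intervals was not set by the rule, but is not independent of it. Genes were chosen for a high value at 3-HAI, which favours a lower value at 6-HAI. On the log2 scale the median fall was 0.59, 1.17 and 1.62 in the successive intervals, over the 113 genes above 0 at these time points. The intervals double in length, from 3 to 6 and 12 hours, so that the steps are not rates.

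At 12-HAI 89 genes (78.1%) were at 50% of their 3-HAI value or less, against 29.0% of all genes with at least 10 FPKM at 3-HAI. The share was 82.6% in genes lost 4-fold by 24-HAI without a 4-fold rise, and 22.5% in induced genes that were not lost. Both sets are compared below, and such a loss by 12-HAI is not particular to the transient genes. A level of 50% of the 3-HAI value or less was first reached at 6-HAI by 32 genes, at 12-HAI by 58 and at 24-HAI by 24. Of the transient genes 72 declined in each interval after 3-HAI, a course that the 4-fold loss asked for by the rule favours. At 12-HAI 41 genes were still at least 4-fold above dry seeds, and 1 gene, Glyma12g05190, was higher than at 3-HAI (17.8 against 17.1 FPKM). By 24-HAI 10 genes lay under 1 FPKM and 31 were still at 10 FPKM or more. The counts of 72, 41, 10 and 31 genes are given for the transient genes alone, as a description.

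The genes were compared with 298 others that also reached 10 FPKM at 3-HAI after a 4-fold rise but were not 4-fold lower at 24-HAI. The median ratio of 3-HAI to dry was 7.24 in the transient genes and 6.47 in the others, and both groups were chosen by the same 4-fold limit on it. Their levels differed, with medians at 3-HAI of 43.9 FPKM in the transient genes and 20.9 FPKM in the others. In dry seeds these medians were 4.87 and 2.68 FPKM. At 6-HAI the median ratio to 3-HAI was 0.665 in the transient genes (quartiles 0.497 and 0.984) and 1.02 in the induced genes that were not lost (quartiles 0.757 and 1.5). At 12-HAI the medians were 0.353 and 0.865. The quartile ranges overlap at 6-HAI and not at 12-HAI, where the upper quartile of the transient genes (0.469) lay under the lower quartile of the others (0.541). A 2-fold fall from 3-HAI to 6-HAI was seen in 6.71% of the induced genes that were not lost. A 2-fold rise was seen in 14.8% of them, against 8.77% of the transient genes. Their highest value was at 6-HAI in 30.2%, against 24.6% of the transient genes. Both groups were drawn by their value at 24-HAI, which cannot be separated from the path taken to it, and the difference was not tested.

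A further 3069 genes with at least 10 FPKM at 3-HAI were 4-fold lower at 24-HAI without a 4-fold rise before it, and their median was 44.0 FPKM in dry seeds. This comparison was chosen after the values were seen. The median ratio of 3-HAI to 24-HAI was 7.02 in the transient genes and 6.85 in this set lost without induction. Both were chosen by the same 4-fold limit on that ratio, so no likeness is read from it. In the set lost without induction, 59.2% of the genes were highest in dry seeds and 39.0% at 3-HAI, so that many rose by less than 4-fold. Its ratios of 6-HAI to 3-HAI lay close together, with a median of 0.622 and quartiles of 0.555 and 0.710. Those of the transient genes were spread more widely on both sides. From 6-HAI to 12-HAI the median ratio was 0.446 in the transient genes and 0.613 in the set lost without induction. A fall of at least 2-fold was found in 64.0% and 28.3% of them. In the last interval the median ratios lay closer, at 0.328 in the transient genes and 0.356 in the set lost without induction. A 2-fold fall was less frequent in the transient genes (72.8%) than in that set (84.6%). With equal FPKM totals, a 2-fold fall from 6-HAI to 12-HAI was found in 38.6% of the same transient genes and 13.2% of the set lost without induction.

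**Figure D2:**
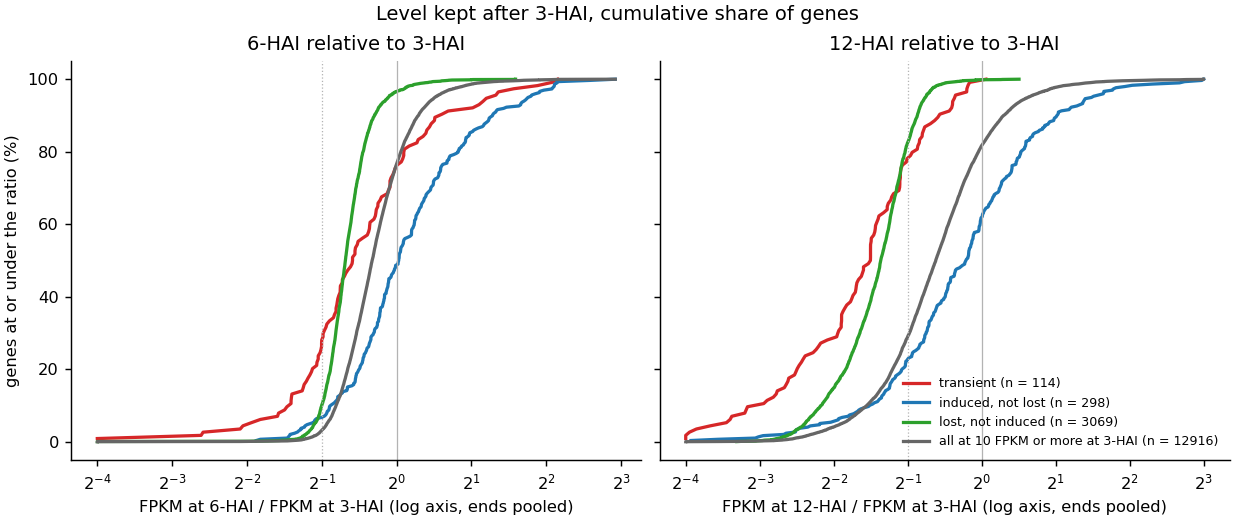
Cumulative share of genes (%) at or under a given ratio of FPKM at 6-HAI (left) or 12-HAI (right) to FPKM at 3-HAI, on a log2 axis whose end values hold all ratios beyond them, for the transient genes, the induced genes that were not lost, the genes lost without induction and all genes with at least 10 FPKM at 3-HAI. The red line of the 114 transient genes has its median at 0.665 on the left and 0.353 on the right, and its slope on the left is flatter than that of the 3069 genes lost without induction.

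Among the genes with a name, Glyma11g36730 (chr11:38084594-38086445), a xyloglucan endotransglucosylase, climbed from 1.36 FPKM in dry seeds to 105 at 3-HAI and declined through 65.9 and 18.3 to 14.5 FPKM. Its main descent came between 6-HAI and 12-HAI, and at 24-HAI it still stood 10.6 times above dry seeds.

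The LOB domain genes differed in the time of the maximum. Glyma07g10180 (chr7:8509838-8511558) went from 1.705 FPKM in dry seeds to 96.0 at 3-HAI and then came down through 75.03 and 34.1 to 19.1 FPKM. Glyma13g07590 (chr13:7785521-7787616) had 1.23, 103, 124, 30.4 and 10.04 FPKM, so that it kept 0.296 of its 3-HAI value at 12-HAI where Glyma07g10180 kept 0.355. Both remained well above dry seeds at the end, by 11.2 times in Glyma07g10180 and 8.15 times in Glyma13g07590. The difference in the time of the maximum rests on ratios of 6-HAI to 3-HAI of 0.782 and 1.21, from 1 joint value per time point. With equal FPKM totals Glyma07g10180 hardly changed from 3-HAI to 6-HAI (log2 change of FPKM + 1 of -0.079).

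The mitogen-activated protein kinase gene Glyma07g38510 (chr7:43226635-43233554) was the weakest of the 4 named genes, with 6.30, 37.7, 23.2, 12.2 and 9.21 FPKM. Its ratio of 3-HAI to 24-HAI, 4.09, only just met the rule. The gene no longer met it with equal FPKM totals or after quantile normalization, and the same holds for Glyma07g10180. Glyma11g36730 and Glyma13g07590 met the rule under each of the 3 scalings tried.

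The study's text gives identifiers for 34 genes, and the 4 named here are those that met the rule. Of the 11 genes it discusses as early wall, LOB domain, ERF or kinase genes, 9 rose at least 4-fold to 10 FPKM or more at 3-HAI. That condition was met by 0.761% of all genes. From at least 10 FPKM, 5 of the 11 were 4-fold lower at 24-HAI, against 5.88% of all genes. Those genes were picked by the study for their rise in these samples, so the first count is no independent evidence. The kinases parted after 3-HAI, as 1 of 7 was transient by the rule. Glyma10g33240, an ethylene receptor, and Glyma07g10695 were highest at 12-HAI, and Glyma12g22660, a homolog of the Arabidopsis wall-sensing kinase THESEUS1, was highest at 24-HAI. The ERF (ethylene response factor) gene Glyma02g08835 missed the rule on its rise of 3.25-fold alone. It was 31.4-fold lower at 24-HAI than at 3-HAI. Of the other 23 genes (ABA, ethylene receptor, sugar, glyoxylate and shikimate genes) 0 rose 4-fold to 10 FPKM at 3-HAI. Among them 5 fell 4-fold by 24-HAI from at least 10 FPKM, against 5.88% of all genes. They include both ABI3 genes, which encode a transcription factor of seed maturation. The study chose the genes of both lists, so no excess is read from these counts.

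**Figure D3:**
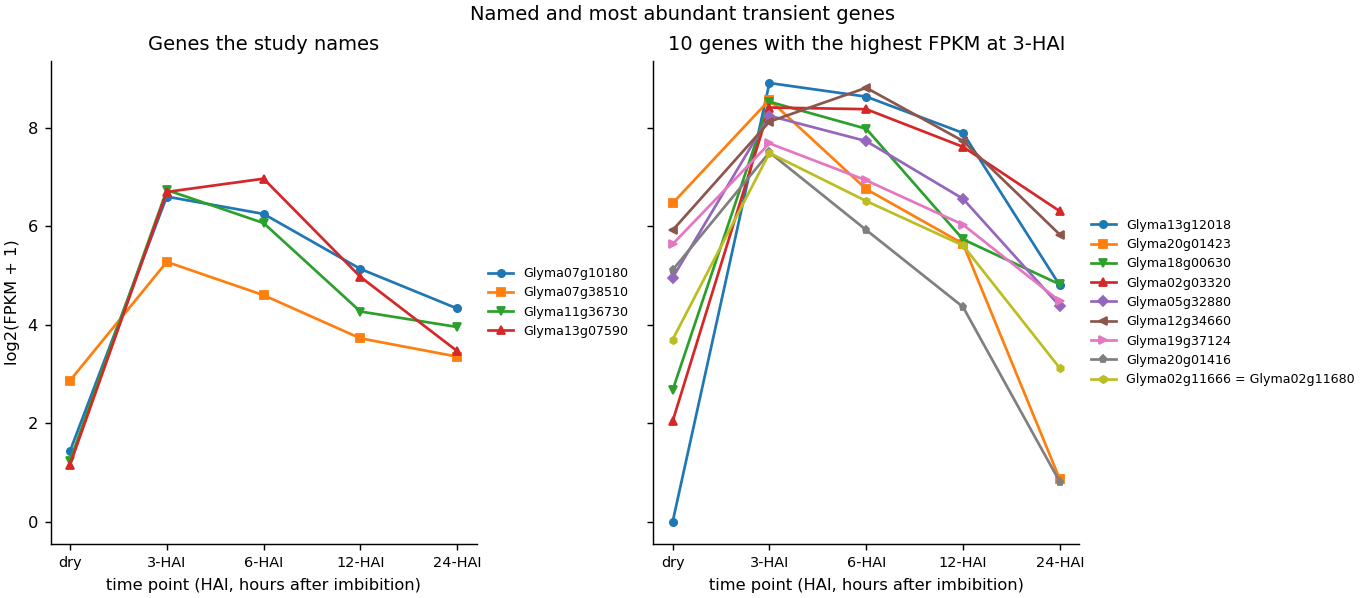
Transcription as log2(FPKM + 1) by time point of the 4 transient genes that the study names (left) and of the 10 transient genes with the highest FPKM at 3-HAI (right), where a single line stands for Glyma02g11666 and Glyma02g11680, which have the same values. On the left Glyma13g07590 alone was higher at 6-HAI than at 3-HAI, and on the right Glyma20g01423 and Glyma20g01416 ended lowest.

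The most abundant transient transcript was that of Glyma13g12018 (chr13:15241596-15243449), listed at 0 in dry seeds and at 478, 395, 237 and 26.8 FPKM thereafter. No ratio is given against a value listed at 0, since such a value can also be a failed estimate. Glyma18g00630 (chr18:266878-268791) had 5.38, 367, 251, 52.2 and 27.2 FPKM, a rise of 68.4-fold. Glyma02g03320 (chr2:2577694-2580038) rose further, 109-fold, from 3.12 to 339 FPKM, and then held 331, 194 and 78.0 FPKM. This last value was the highest of the transient genes at 24-HAI, and under 2 of the 3 scalings tried, by total FPKM and by quantiles, the gene did not meet the rule.

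Other abundant members started from a stored level. Glyma05g32880 (chr5:37662990-37663847) had 30.0, 301, 211, 93.1 and 19.8 FPKM. Glyma12g34660 (chr12:37841669-37842672) had 59.5, 278, 447, 211 and 55.9 FPKM, and met the rule under 0 of the 3 scalings. The first of these ended under its dry level and the second close to it. Glyma02g11666 and Glyma02g11680, overlapping loci on chromosome 2 with 1 shared set of values, had 12.0, 178, 90.1, 47.8 and 7.69 FPKM.

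The deepest losses were those of a neighbouring pair on chromosome 20. Glyma20g01423 (chr20:957555-958498) had 87.4, 377, 107, 49.0 and 0.821 FPKM, so that it ended 460-fold under its 3-HAI value. Glyma20g01416 (chr20:946329-947296) had 33.5, 179.8, 59.6, 19.5 and 0.754 FPKM, a fall of 238-fold. Both ended far below their stored level in dry seeds. Glyma17g20850 (0.282, 15.0, 6.60, 2.71 and 0.344 FPKM), Glyma12g10620 (8.06, 36.8, 21.2, 11.3 and 0.931 FPKM) and Glyma17g13390 (0.142, 13.5, 8.03, 1.28 and 0.367 FPKM) followed with falls of 43.7-fold, 39.5-fold and 36.8-fold. All 5 of these genes ended under 1 FPKM, so that their ratios rest on a small value.

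Relative to dry seeds, the level at 24-HAI was within 2-fold in 59 genes (51.8%), at least 2-fold higher in 34 (29.8%) and at least 2-fold lower in 21 (18.4%). In the deposited FPKM the median ratio of 24-HAI to dry was 0.972, with wide differences between genes. Equal FPKM totals multiply dry values by 0.717 and 24-HAI values by 1.24, which raises this ratio. Median-ratio scaling multiplies them by 1.25 and 0.915, which lowers it, so a return to the starting level depends on the scaling. In 8 genes the final value was at least 4-fold under the dry value, among them both genes of the chromosome 20 pair, Glyma12g10620 and Glyma13g29070. These end points are part of the contrasts behind the rule, and the counts are given for the transient genes alone, as a description.

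The genes also differed in how much was left at 6-HAI. Leaving aside Glyma10g10741, the lowest ratio of 6-HAI to 3-HAI belonged to Glyma15g08580 (0.0406, 11.5, 1.87, 1.05 and 0.708 FPKM), with 0.163. Glyma07g15510 (chr7:15309054-15310384) had a ratio of 0.167, with 16.3, 82.6, 13.8, 5.35 and 19.6 FPKM. It was back under its dry level within 3 hours and rose again 3.66-fold in the last interval. Glyma13g29070 (2.77, 13.3, 3.11, 0.822 and 0.387 FPKM) had a ratio of 0.235. In these 3 genes the high value was at 3-HAI alone among the time points sampled. Glyma07g15510 met the rule under 0 of the 3 scalings and Glyma15g08580 under all 3.

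A spike of another kind was listed for Glyma10g10741 (chr10:10437936-10440522), with 0, 71.5, 0, 1.52 and 4.65 FPKM. Its locus has an entry on each strand, and the entry on the other strand stayed under 0.05 FPKM throughout. No other transient gene was listed at 0 at 6-HAI, and whether the zeros are failed estimates was not tested.

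At the other end were genes that had not reached their maximum at 3-HAI. Glyma02g42770 (chr2:47745851-47747189) had 5.31, 25.7, 114, 5.46 and 5.07 FPKM. The step up to 6-HAI was 4.44-fold and the step down to 12-HAI 20.9-fold, to the level of dry seeds. Glyma12g05190 (0.461, 17.1, 63.0, 17.8 and 4.06 FPKM) and Glyma16g04210 (2.27, 44.6, 132, 29.6 and 7.39 FPKM) rose 3.69-fold and 2.96-fold after 3-HAI. Glyma11g13140 (1.88, 16.7, 70.2, 14.5 and 2.90 FPKM) rose 4.22-fold. All these genes fell at least 2-fold from 6-HAI to 12-HAI, as did 25 of the 28 genes that were highest at 6-HAI. Those 28 were picked by their high value at 6-HAI, so a lower value next is no result. Under the 3 scalings Glyma02g42770 no longer met the rule, whereas Glyma11g13140 met it in each.

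Transient genes lay next to each other more often than their number in the table would give. Of the 216 loci that adjoin a transient gene in gene order and carry other values than it, 10 (4.63%) were themselves transient, against 0.211% of all loci, and 14 (6.48%) had risen 4-fold to 10 FPKM or more at 3-HAI, against 0.761%. These 10 loci form 5 pairs of adjoining genes with different values. The pair on chromosome 19 lies within the span of 1 longer locus, and whether its genes are separate transcripts was not tested. In 5 of the 5 pairs both genes were highest at the same time point, and so they were in the 10 pairs with different values and at most 10 loci between them. With 75.4% of all transient genes highest at 3-HAI, a shared time point is frequent among them, and nothing is read from these counts. Whether adjoining genes share reads was not tested, since sequences were not used here.

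On chromosome 11, Glyma11g13130 (16.7, 85.8, 215, 76.6 and 20.5 FPKM) and Glyma11g13140, given above, lie 1468 bases apart on the same strand and both rose more than 2-fold after 3-HAI. On chromosome 13, Glyma13g37750 (0.596, 43.1, 87.1, 32.8 and 9.22 FPKM) and Glyma13g37760 (0, 13.4, 29.9, 6.68 and 2.90 FPKM) lie 2129 bases apart on the same strand and did the same. These pairs supply 4 of the 10 transient genes that rose at least 2-fold from 3-HAI to 6-HAI. The chromosome 15 pair faces opposite strands, with Glyma15g08560 (20.3, 90.7, 52.6, 25.2 and 3.93 FPKM) falling gradually and Glyma15g08580, given above, falling at once.

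On chromosome 19, Glyma19g37116 (16.0, 90.9, 53.9, 32.1 and 10.4 FPKM) and Glyma19g37124 (48.7, 204, 121, 64.4 and 21.3 FPKM) both lie within the span of a longer locus on the same strand, Glyma19g37108. Their ratios of 6-HAI to 3-HAI were 0.593 and 0.593, so that their profiles differ in level and hardly in shape. The pair Glyma20g01416 and Glyma20g01423 on chromosome 20 lies 10259 bases apart on 1 strand, with ratios of 0.332 and 0.283.

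**Figure D4:**
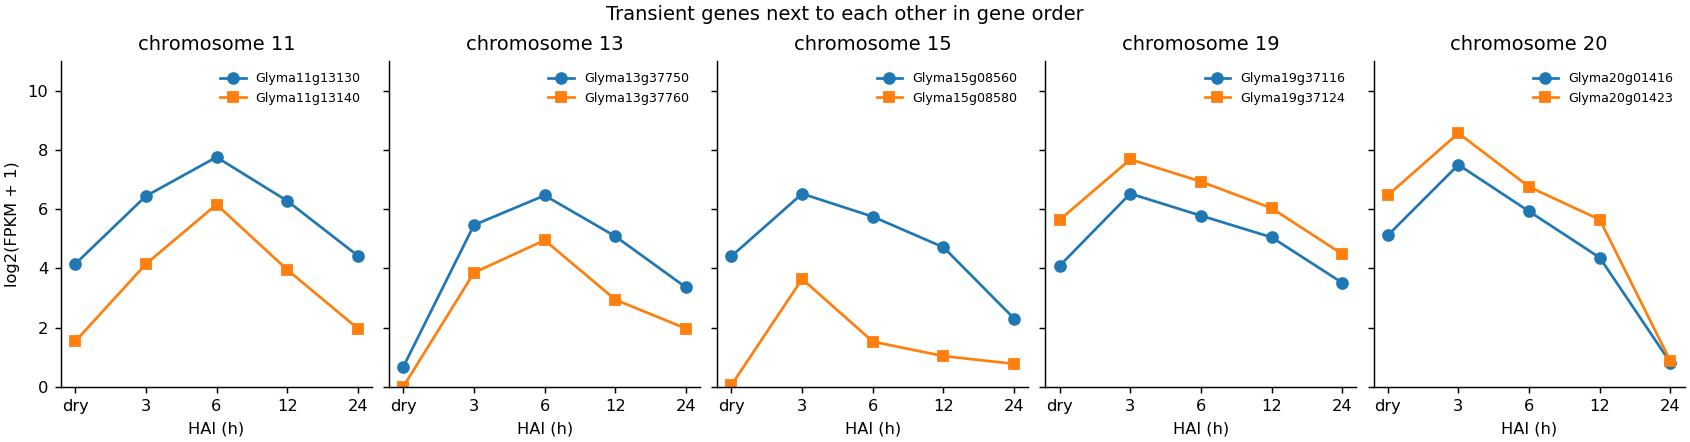
Transcription as log2(FPKM + 1) by time point (hours after imbibition, HAI) for the 5 pairs of transient genes that adjoin each other in gene order and have different values, with 1 panel per pair. The pairs of chromosomes 11 and 13 were highest at 6-HAI and the pairs of chromosomes 15, 19 and 20 at 3-HAI.

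Not every identifier stands for a measurement of its own. In 6 sets, 13 transient genes share all 5 values with a neighbour, which leaves 107 distinct profiles. The sets are Glyma02g11666 with Glyma02g11680, Glyma03g31691 with Glyma03g31700, Glyma13g40276 with Glyma13g40293, Glyma18g51201 with Glyma18g51221, Glyma20g01301 with Glyma20g01310, and Glyma19g29300 with Glyma19g29333 and Glyma19g29350. The FPKM of such a set cannot be assigned to 1 of its genes. Sharing was less frequent here (11.4%) than among all genes with at least 10 FPKM at 3-HAI (20.1%). Glyma09g38770 and Glyma13g12056 overlap a locus on the opposite strand, and 6 genes overlap one on their own strand. As the library kit does not mark strand, reads of such loci cannot be told apart.

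By position, 19 of the 114 genes (16.7%) lie on chromosome 13, which holds 6.81% of the genes with at least 10 FPKM at 3-HAI and 8.72% of the induced genes that were not lost. Counted as distinct profiles these are 18 of 107. The genes are spread along the chromosome from Glyma13g01140 to Glyma13g43730 and do not form 1 run. Among them 9 of 19 were highest at 6-HAI, compared with 19 of the 95 genes elsewhere, and 3 of the 4 transient genes listed at 0 in dry seeds are on this chromosome. The 9 include Glyma13g40276 and Glyma13g40293, which share 1 set of values, and the adjoining Glyma13g37750 and Glyma13g37760. The chromosome was singled out as the one with the most transient genes, and these contrasts were not tested. Of its 19 genes, 7 met the rule under all 3 scalings, against 48 of all 114. The next most frequent were chromosome 19 with 9 genes and chromosomes 3 and 20 with 8 each, while chromosome 9 had 1.

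**Figure D5:**
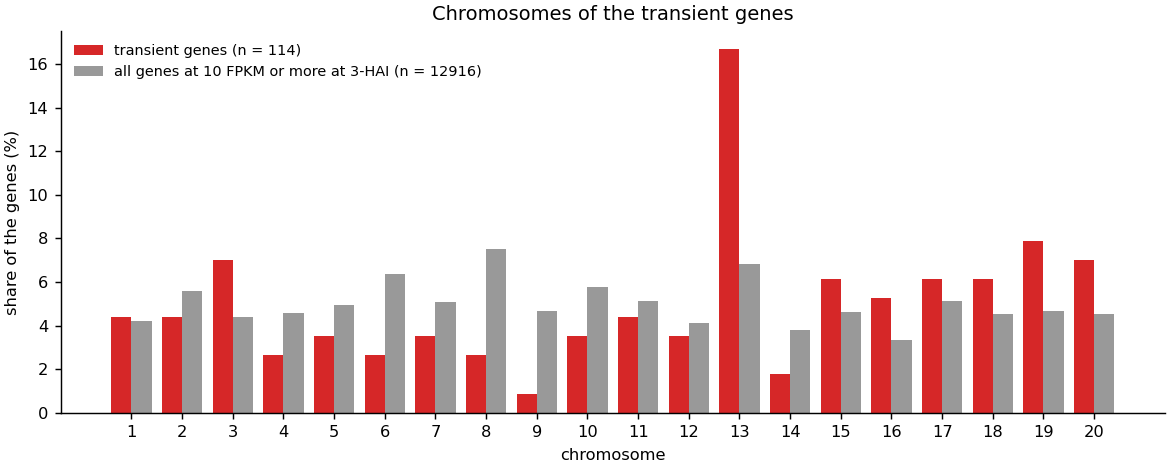
Share of genes (%) on each of the 20 chromosomes, for the 114 transient genes (red bars) and for all genes with at least 10 FPKM at 3-HAI (grey bars). Chromosome 13 holds 16.7% of the transient genes and 6.81% of all genes at that level, the widest gap of the 20 chromosomes.

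The transient genes were short. The median span of their loci, from start to end with introns included, was 1887 bases, compared with 2894.5 bases in the induced genes that were not lost, 3411 bases in the genes lost without induction and 3908 bases in all genes with at least 10 FPKM at 3-HAI. A span under 2000 bases was found in 51.8% of the transient genes, 28.9% of the induced genes that were not lost, 27.3% of the genes lost without induction and 19.1% of all genes at that level. With 1 gene per set of identical values the median was 1913 bases. The part of transcript length in the choice of the genes was not tested. The strands were used about equally, with 63 genes on the plus strand.

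Close to the limits, the rule parted genes with nearly the same profile. On the rise from dry seeds, Glyma13g38900 (4.00025-fold), Glyma03g26480 (4.03-fold) and Glyma15g11540 (4.03-fold) were just inside, and Glyma12g29630 (3.92-fold), Glyma20g37240 (3.89-fold) and Glyma01g26340 (3.87-fold) just outside. On the loss by 24-HAI, Glyma16g29900 (4.03-fold), Glyma13g05230 (4.04-fold) and Glyma20g26760 (4.06-fold) were inside, and Glyma15g26790 (3.999-fold), Glyma19g02430 (3.96-fold) and Glyma07g18570 (3.95-fold) outside. On the level at 3-HAI, Glyma20g01301 and its copy Glyma20g01310 (10.4 FPKM) and Glyma03g35400 (10.6 FPKM) were inside, and Glyma06g45290 (9.70 FPKM), Glyma17g36121 (9.66 FPKM) and Glyma17g12601 (9.46 FPKM) outside.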

How the data were processed

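The authors removed the first bases of the paired reads (Trimmomatic 0.30), mapped them to the G. max genome, version 1.1 (TopHat 2.0.9 with Bowtie 2.1.0), and estimated FPKM with Cufflinks. The deposited FPKM table has 1 column per time point. How replicates were combined is not stated, the table holds no read counts, and the number of fragments behind a value cannot be taken from it. The study's read totals per time point were not used here. All 5 value columns were mapped to a time point, and 0 were left over. The kit named in the labels does not mark strand.

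The calculations used Python 3.11.15 with numpy 2.4.6, pandas 2.3.3 and scipy 1.17.1, and drawn with matplotlib 3.10.9. Of 54801 entries for 54154 genes, the entry with the higher maximum was kept for 647 genes with 2. Ratios used no pseudocount. The log2(FPKM + 1) scale of the plots understates changes of low genes. A step counted from 2-fold. No test was run, since the table has no column per replicate. The member rule was tested on simulated data.

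Genes were named if the study's text gives them, by the highest FPKM at 3-HAI (10 genes), the largest ratios of 3-HAI to 24-HAI and, from at least 1 FPKM in dry seeds, to dry (5 each), the highest and lowest ratios of 6-HAI to 3-HAI (4 each) and nearness to the limits (3 per side). The longest runs of adjoining genes were also to be named, and no run was longer than 2 genes. Others were named after their values were seen. Members, lists and comparisons were chosen with earlier results of these data known. Positions are those of the table and build, and whether they count from 0 or 1 is not stated. Sequences were not used here.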

Additional observations from a re-analysis of the deposited data

How the results depend on the processing

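The number of genes and the timing of their fall moved with the scaling of the time points. Of the 114 genes, 48 met the rule under all 3 scalings and 13 under none. Scaling to the same total gave 93 genes (74 of the 114), median-ratio scaling 82 (77 of the 114) and quantile normalization 69 (65 of the 114). A ratio limit of 3 gave 215 genes and a limit of 5 gave 65, no minimum at 3-HAI gave 1455, and a pseudocount of 1 FPKM gave 89. With the genes chosen anew at equal FPKM totals, 15.1%, 37.6% and 86.0% of the genes fell 2-fold in the successive intervals, and 15.1% had lost 50% by 6-HAI and 54.8% by 12-HAI. After quantile normalization 18.8% fell in the first and 85.5% in the last interval, 62.3% were highest at 3-HAI and 36.2% at 6-HAI, and 18.8% had lost 50% by 6-HAI and 63.8% by 12-HAI. A step of 1.5-fold was passed downwards by 50.9%, 79.8% and 81.6% in the successive intervals and a step of 3-fold by 7.02%, 25.4% and 52.6%, with 2.63% rising 3-fold from 3-HAI to 6-HAI. By 6-HAI 4.39% and by 12-HAI 28.1% were at 25% of the 3-HAI value or less. Without the 4 genes listed at 0 in dry seeds (chosen after seeing the data), 0% rose 2-fold from 6-HAI to 12-HAI. The median span and the share on chromosome 13 were computed anew only with 1 gene per set of identical values and without overlapping loci, where they moved by less than 1.5-fold or stayed in their binomial interval. The transient genes stayed under the induced genes that were not lost at 6-HAI and 12-HAI in each scaling tried. Among the genes named by rule, the neighbouring genes and those at the limits, no change of at least 2-fold reversed under the 3 scalings or a pseudocount of 0.1 FPKM. A pseudocount cannot turn a rise into a fall, and the scalings shift the typical gene by less than 2-fold. This outcome was therefore nearly fixed in advance, and nothing is read from it. The later intervals and the neighbouring genes were added after seeing the data. Leaving out a replicate was not run, since the table joins both. No paired analysis was possible because the table holds 1 column per time point.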
